A study of Mus musculus with 3 samples.

Results

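Chemokine and formyl peptide receptors are the sensors with which macrophages and other leukocytes read gradients of attractants. Of the 55450 gene rows with a symbol, 8 were described here, taken by their symbols: Ccr1, Ccr2, Ccr7, Cx3cr1, Cxcr4, Ccrl2, Fpr1 and Fpr2. The list of symbols sets no threshold on a measured value, but it was drawn up with earlier results of these data known. The RNA came from the cytosolic fraction of C57BL/6J bone-marrow-derived macrophages (primary cells grown from marrow precursors) given Lipid A at 100 ng/ml for 20 min. Lipid A is the membrane anchor of bacterial lipopolysaccharide and is sensed by Tlr4. There were 3 libraries of this single condition, numbered as biological replicates 1 to 3, with 1 donor identifier shared by all and with sex and age not collected. Unstimulated cells are not analysed here, and neither are other times or nuclear RNA. Every value below is therefore a level, and no gene is said to have been induced or repressed. An SD over the 3 libraries measures the spread between these samples, which may be partly technical.

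As background, the members are heptahelical receptors of the cell surface that mostly couple to inhibitory G proteins of the Gi class. Ligand binding releases the beta-gamma subunits, which act on phosphoinositide 3-kinase gamma, phospholipase C and Rac to steer migration. G protein-coupled receptor kinases, arrestins and RGS proteins then end the signal. Ccrl2 differs in class: it binds the attractant chemerin without classical G protein signalling and can present it to a neighbouring receptor, Cmklr1. Formyl peptide receptors detect peptides that start with N-formylmethionine, released by bacteria and by damaged mitochondria.

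The libraries held 27277686, 81497603 and 37124109 expected counts on gene rows in replicates 1, 2 and 3, so replicate 2 was the deepest. A gene with 0 counts could be present at up to 3 counts, or 0.110, 0.0368 and 0.0808 CPM (counts scaled to the library total) in replicates 1, 2 and 3. Such limits, and the intervals below, take in counting error alone. Levels are given as TPM (transcript abundance corrected for transcript length and library total). Nuclear-encoded protein-coding genes held only 25%, 22% and 19.7% of TPM in replicates 1, 2 and 3. Rescaled TPM, in which these genes have the same sum in each library, is therefore used for differences between libraries. All 8 macrophage markers, led by Lyz2, Cd68 and Csf1r, reached 1 TPM in every library, which fits the labelled cell type. Malat1 and Neat1, RNAs kept in the nucleus, together summed to 391, 272 and 847 TPM, so replicate 3 held the most of them. Whether this bears on any member was not tested.

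Promoter sequence is shown for the 3 members of highest level, since the levels below turn on them. Each window, from RefSeq on GRCm38.p6, runs from 250 bases before the transcription start to 50 after it, 5′ to 3′ on the gene's own strand. All 3 genes lie on the minus strand, at chr9:111057469-111057768 (Ccrl2), chr1:128592250-128592549 (Cxcr4) and chr9:123968643-123968942 (Ccr1). Capitals in the Ccrl2 window mark a match to the NF-kB consensus, and capitals in the other windows mark CG dinucleotides.
Ccrl2: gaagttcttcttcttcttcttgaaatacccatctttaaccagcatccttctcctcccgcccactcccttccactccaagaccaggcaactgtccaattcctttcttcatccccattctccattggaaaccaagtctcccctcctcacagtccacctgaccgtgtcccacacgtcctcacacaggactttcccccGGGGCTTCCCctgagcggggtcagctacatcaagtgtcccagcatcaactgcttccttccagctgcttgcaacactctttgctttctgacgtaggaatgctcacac
Cxcr4: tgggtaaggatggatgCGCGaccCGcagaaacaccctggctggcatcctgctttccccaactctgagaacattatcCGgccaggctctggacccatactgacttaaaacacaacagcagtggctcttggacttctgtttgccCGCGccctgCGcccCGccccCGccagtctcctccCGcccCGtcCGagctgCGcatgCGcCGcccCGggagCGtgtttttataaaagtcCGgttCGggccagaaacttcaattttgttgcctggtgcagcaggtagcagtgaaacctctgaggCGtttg
Ccr1: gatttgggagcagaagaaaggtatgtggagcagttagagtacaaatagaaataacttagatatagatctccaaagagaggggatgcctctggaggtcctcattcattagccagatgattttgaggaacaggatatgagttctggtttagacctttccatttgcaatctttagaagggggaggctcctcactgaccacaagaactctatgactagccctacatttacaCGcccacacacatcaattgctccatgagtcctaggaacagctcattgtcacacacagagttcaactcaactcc

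RefSeq windows were held for 7 of the 8 members, 9 windows in all, 3 of them for Ccrl2. Each was searched on both strands for the NF-kB consensus, AP-1 (TGANTCA), PU.1 (GAGGAAGT), C/EBP (TTGCNNAA), CRE (TGACGTCA) and E-box (CACGTG) letters. The only match in the 9 windows was the NF-kB one, which starts 56 bases before the most upstream Ccrl2 start and overlaps no other motif. That motif was found in 4.51% of the 32851 windows of the table, against 7.81% for AP-1, 3.20% for PU.1, 10.8% for C/EBP, 1.79% for CRE and 7.15% for the E-box. A match is a description of letters and not evidence of binding, and a missing one says only that these letters are not in the window. The Cxcr4 window held 20 CG dinucleotides and 59.3% G and C, the Ccrl2 window 6 and 53.0%, and the Ccr1 window 1 and 44.0%, beside medians of 7 and 52.7% over all windows.

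The members split into an abundant and a scarce set, names that hold only relative to each other. Ccr2, the lowest of the abundant set at a mean of 3.26 TPM, lay above 24.4% of the gene rows reaching 1 TPM in all libraries. Cxcr4, Ccrl2, Ccr1 and Ccr2 reached 1 TPM in each of the 3 libraries, whereas Ccr7, Fpr2, Cx3cr1 and Fpr1 were below 1 TPM in all of them. The count of 4 in 8 is near the background, since 40.7% of the nuclear protein-coding genes and 16.8% of all gene rows reached the same limit. On the rescaled scale 5 of 8 members reached 1 in every library, beside 47.6% of the nuclear protein-coding genes, with Ccr7 the added member. The median of the members' mean TPM was 1.87. TPM in the second transcript table was 0.370 to 0.451 times as high for every member, with means of 15.6 for Cxcr4, 10 for Ccrl2, 3.50 for Ccr1 and 1.28 for Ccr2. After rescaling, the second table gave 0.948 to 1.12 times the first. Together Cxcr4 and Ccrl2 held 80.1% ± 5.26 (SD, n = 3) of the TPM summed over the 8 genes.

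**Figure D1:**
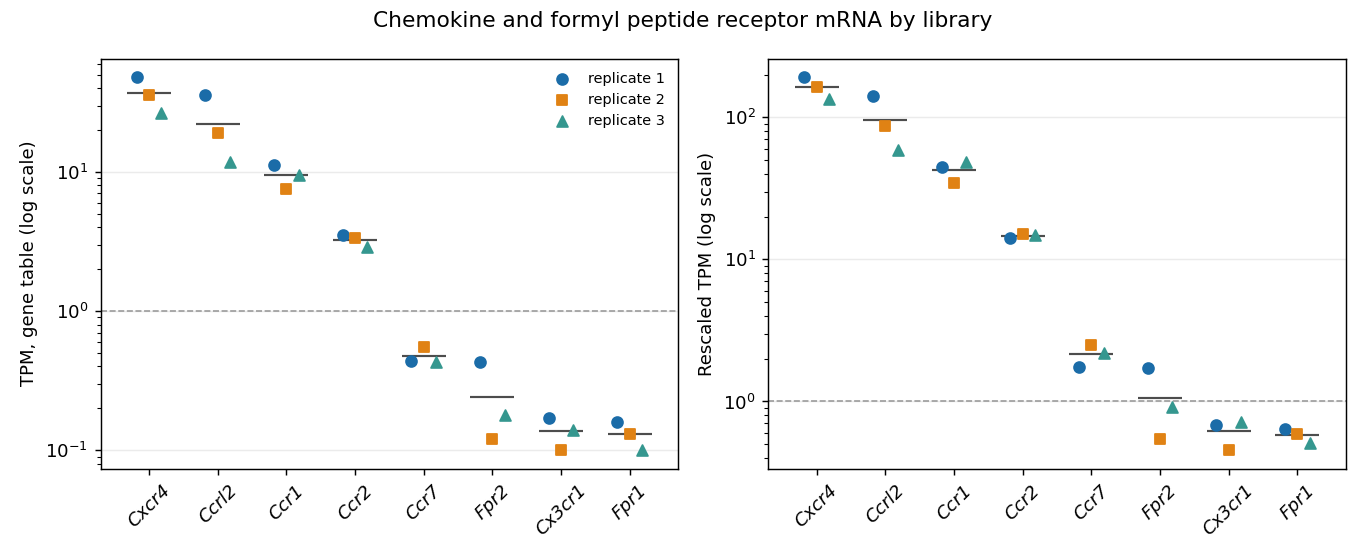
Level of the 8 receptor genes in each library, as TPM (left) and rescaled TPM (right), both on log axes; points are libraries, short lines are means of 3 and the dashed line is 1. The 4 genes on the left of each panel lie above the line in all 3 libraries, and in the left panel the other 4 lie below it.

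Cxcr4, the receptor for Cxcl12 that holds leukocytes and precursors in the marrow, had the highest level. It stood at 48.0, 35.8 and 26.5 TPM in replicates 1, 2 and 3, from 3462, 8664 and 3002 expected counts. The mean was 36.8 ± 10.8 TPM (SD, n = 3), above 95.8% of the nuclear protein-coding genes. Replicate 1 was highest and replicate 3 lowest, and rescaling kept that order at 192, 163 and 135 rescaled TPM. The highest library was 1.81 times the lowest by TPM and 1.43 times after rescaling. The gene spans 128588199 to 128592293 on the minus strand of chromosome 1 (mm10), overlaps no other gene and shared none of its 31-base words with transcripts of other genes. Its ligand gene Cxcl12, which stromal cells make, had 2, 12 and 2 expected counts, and Mif, an alternative ligand, stood at 86.2 ± 18.8 TPM (SD, n = 3).

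Ccrl2, the chemerin-binding atypical receptor, was second and differed most between libraries among the well-counted members. It stood at 35.5, 19.2 and 11.7 TPM in replicates 1, 2 and 3, from 2791, 5209 and 1590 expected counts, with a mean of 22.1 ± 12.2 TPM (SD, n = 3). After rescaling the values were 142, 87.4 and 59.3, so replicate 1 was 1.63 times replicate 2 and 2.40 times replicate 3. The exact 95% Poisson interval of the count was 2688 to 2897 in replicate 1 and 1513 to 1670 in replicate 3, so counting error is small beside this difference. The SD of log2(rescaled TPM + 0.1) was 0.63 for Ccrl2, above that of 97.2% of the 9725 genes averaging 1 TPM or above, whose median was 0.11. Without replicate 1 that SD was 0.40. The ratio of the highest to the lowest library was 2.54 in the second transcript table after rescaling and 2.21 in TMM-normalised CPM. The gene spans 111054486 to 111057519 on the minus strand of chromosome 9 and shared 0.231% of its 31-base words with other genes. Chemerin itself is encoded by Rarres2, a gene of liver and fat, which had 0, 0 and 1.90 expected counts, whereas its signalling receptor gene Cmklr1 stood at 14.2 ± 2.49 TPM (SD, n = 3). Cxcr2, a receptor that Ccrl2 is known to pair with on mouse neutrophils, averaged 0.0467 ± 0.0351 TPM (SD, n = 3).

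Ccr1, a receptor for Ccl3, Ccl5, Ccl6 and Ccl9, came next. It stood at 11.2, 7.60 and 9.56 TPM in replicates 1, 2 and 3 from 1478, 3288 and 1970 expected counts, with a mean of 9.46 ± 1.82 TPM (SD, n = 3). Replicate 2 was lowest on both scales, while the highest library was replicate 1 by TPM and replicate 3 after rescaling, at 45, 34.5 and 48.6. It has 1 annotated transcript, at 123962124 to 123968692 on the minus strand of chromosome 9, and shared 0.642% of its 31-base words with other genes, mainly Ccr3 and Ccr1l1. Its ligand genes were well represented, with Ccl6 at 144 ± 24.2, Ccl3 at 135 ± 51.1, Ccl9 at 72.6 ± 13.8 and Ccl5 at 16.9 ± 6.54 TPM (SD, n = 3).

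Ccr2, which brings inflammatory monocytes to tissue in answer to Ccl2, Ccl7 and Ccl12, was the most even of the 4 abundant members. It stood at 3.55, 3.33 and 2.90 TPM from 596, 1802 and 762 expected counts in replicates 1, 2 and 3. Rescaled values were 14.2, 15.1 and 14.8, a range of 1.06-fold, and the SD of their log2 was 0.05, above that of 14.4% of the genes averaging 1 TPM or above. That SD was 0.14 by unscaled TPM, 0.28 in the unscaled second table and 0.03 without replicate 1, and under each it stayed below those of Cxcr4, Ccrl2 and Ccr1. In the unscaled second table the SDs of the scarce Cx3cr1, Fpr1 and Ccr7 were lower, at 0.13, 0.16 and 0.19. Their means there, 0.0584, 0.0523 and 0.181 TPM, are near the 0.1 added before the log. That addition narrows such SDs, so these 3 are not shown to be more even than Ccr2. The gene lies at 124101950 to 124113557 on the plus strand of chromosome 9. It shared 3.41% of its 31-base words with other genes. Among its ligand genes Ccl2 stood at 29.0 ± 8.30, Ccl7 at 27.0 ± 7.73 and Ccl12 at 8.72 ± 3.66 TPM (SD, n = 3).

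The scarce members had under 200 expected counts in every library. Ccr7, which guides dendritic cells and lymphocytes to lymph nodes along Ccl19 and Ccl21, had 39, 160 and 59 counts in replicates 1, 2 and 3, or 0.440, 0.550 and 0.430 TPM. It was highest in replicate 2 on both scales, and its ligand genes Ccl19 and Ccl21a had no expected counts in the gene table. Cx3cr1, the fractalkine receptor of patrolling monocytes and microglia, had 31, 57 and 38 counts, or 0.17, 0.1 and 0.14 TPM, and its ligand gene Cx3cl1 averaged 0.113 ± 0.0252 TPM (SD, n = 3). Replicate 2 was lowest for Cx3cr1 by TPM and rescaled TPM. The Poisson intervals of Cx3cr1, 0.772 to 1.61, 0.53 to 0.906 and 0.724 to 1.4 CPM in replicates 1, 2 and 3, overlap. Counting error thus leaves its order over the libraries unsettled. Cx3cr1 spans 119901616 to 120069879 on the minus strand of chromosome 9, a stretch that overlaps 9 other annotated genes because 1 of its transcripts, Cx3cr1-202, is long. That transcript had 0 expected counts in all 3 libraries.

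Fpr1 and Fpr2, the receptors for formylated peptides, lie side by side on chromosome 17 and both had few counts. Fpr1 had 9, 23 and 9 counts in replicates 1, 2 and 3, or 0.16, 0.13 and 0.1 TPM. Fpr2, which also binds annexin A1 and serum amyloid A, had 16, 15 and 11 counts, or 0.430, 0.120 and 0.180 TPM. Set against library totals, the exact 95% Poisson intervals of Fpr2 were 0.335 to 0.953, 0.103 to 0.304 and 0.148 to 0.530 CPM in replicates 1, 2 and 3. Of the 31-base words of Fpr2, 43.0% were also in other genes, chiefly the pseudogene Gm5966 and Fpr3, and Fpr3 overlaps Fpr2 on the same strand. The value of Fpr2 is therefore uncertain. The second transcript table gave Fpr2 15, 27 and 12 estimated counts in replicates 1, 2 and 3. There its highest library was 1.53 times its lowest after rescaling, against 3.16 times in the gene table. Fpr3, Fpr-rs3, Fpr-rs4, Fpr-rs6 and Fpr-rs7 had 0 expected counts in every library. Camp, whose peptide is another Fpr2 ligand, had 0, 12 and 7 counts. Anxa1, the annexin A1 gene, stood at 130 ± 16.9 TPM and the serum amyloid A gene Saa3 at 9.99 ± 5.28 TPM (SD, n = 3).

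The order of the members was compared within each library as the difference of log2(TPM + 0.1) between neighbours. Cxcr4 exceeded Ccrl2 by 0.43, 0.89 and 1.18 in replicates 1, 2 and 3, a mean of 0.84 ± 0.38 (SD, n = 3). Ccrl2 exceeded Ccr1 by 1.65, 1.33 and 0.28 (1.09 ± 0.72), so that the gap nearly closed in replicate 3. Ccr1 exceeded Ccr2 by 1.5 ± 0.29 and Ccr2 exceeded Ccr7 by 2.55 ± 0.18, the widest step, with the same sign in 3 of 3 libraries for both. Ccr7 exceeded Fpr2 by 0.84 ± 0.77, but by only 0.03 in replicate 1. Fpr2 against Cx3cr1 (0.44 ± 0.46) and Cx3cr1 against Fpr1 (0.04 ± 0.23) did not differ beyond their spread. The other 5 of the 7 neighbouring pairs kept their sign in every library with a mean above its SD. For 2 of these the mean was no longer above its SD once a library was left out. Ccr7 over Fpr2 came to 0.47 ± 0.63 without replicate 2 and 0.79 ± 1.09 without replicate 3, and Ccrl2 over Ccr1 to 0.97 ± 0.97 without replicate 2 (SD, n = 2). No test was run, because an exact sign-flip test of 3 libraries cannot give a two-sided p below 0.25.

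Estimated isoforms bore on the abundant members with several annotated transcripts, and the capitals in the Ccrl2 promoter window belong to the start of its leading one. Ccrl2-203, whose annotated start is 1 base from that window's, held 72.6%, 71.0% and 71.0% of Ccrl2 TPM in replicates 1, 2 and 3. Ccrl2-201, with the same coding length of 1080 nt, held 14.5%, 19.3% and 24.5%. Ccrl2-202, a 569-nt fragment whose coding end is not annotated, held 12.9%, 9.67% and 4.55%. In the second table Ccrl2-203 held less, 57.7% ± 0.634 against 71.5% ± 0.913 (SD, n = 3), and Ccrl2-202 more, 22% ± 7.57 against 9.03% ± 4.2. In both tables the share of Ccrl2-202 was highest in replicate 1 and lowest in replicate 3, and that of Ccrl2-201 ran the other way.

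Cxcr4-201, the full-length form, held 84.3% ± 1.51 of Cxcr4 TPM and Cxcr4-202, which is cut short in the annotation, held the rest. In the second table the share of Cxcr4-201 was 76.4% ± 1.46 (SD, n = 3). Ccr2-202, a form annotated as 1 exon, held 70.6% ± 5.17 of Ccr2 TPM, or 57.9% ± 6.51 in the second table, ahead of the spliced Ccr2-201 at 13.4% ± 3.04 or 23.7% ± 3.11. All 4 Ccr2 transcripts carry the same coding length of 1119 nt in a single exon. A coding sequence held in 1 exon was also annotated for Ccr1, Cx3cr1, Ccrl2 and Fpr1, while that of Ccr7 is spread over 3. Fpr2-201 has 1053 nt of coding sequence in 1 exon, whereas Fpr2-202 has only 144 nt, over 2 exons. From few counts, Fpr2-202 was assigned 65% ± 1.76 of Fpr2 TPM, or 70% ± 13 in the second table (SD, n = 3). Isoforms of a gene share most of their bases, so these shares are estimates, and the tables differ in them by more than their SD over libraries for Cxcr4-201, Ccrl2-203 and Ccr2-202.

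**Figure D2:**
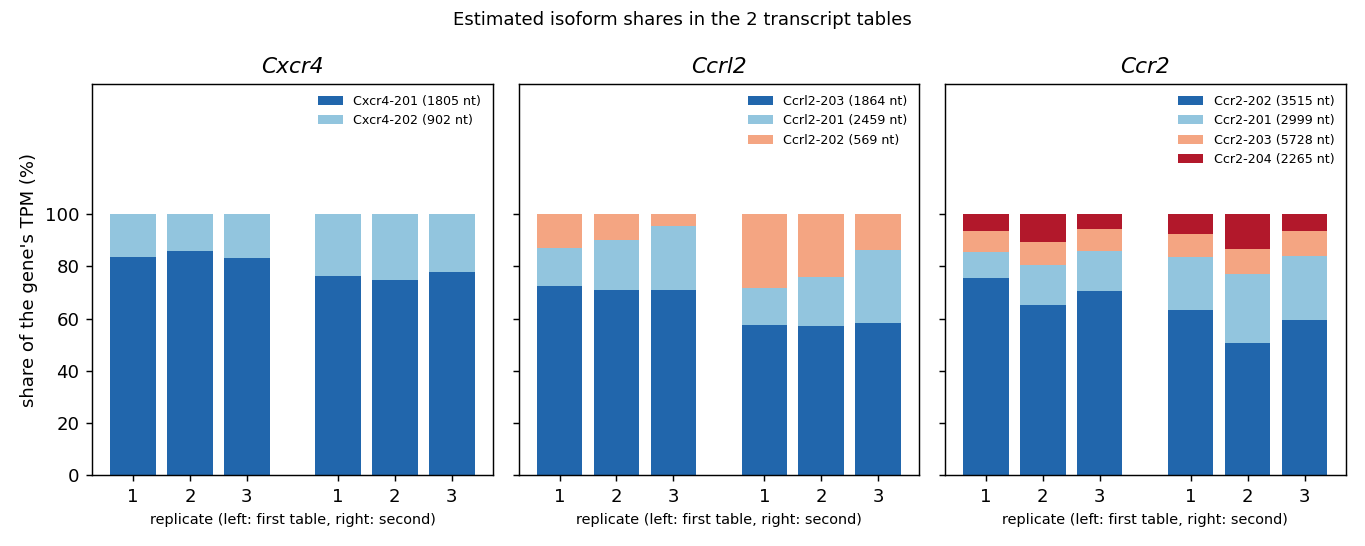
Share of the gene's TPM (%) in each annotated transcript of Cxcr4, Ccrl2 and Ccr2, by replicate, for the first transcript table (left bars) and the second (right bars). The leading transcript is the same in both tables, and its share is lower in the second.

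The way each member varied over the libraries was set beside that of the ligand genes. On the rescaled scale, Ccrl2, Cxcr4 and Fpr1 ran in the order replicate 1, 2, 3 from high to low, as did 16.6% of the genes averaging 1 TPM or above. Fpr1, at a mean of 0.13 TPM, is not among those genes. Its Poisson intervals of 0.151 to 0.626, 0.179 to 0.423 and 0.111 to 0.46 CPM in replicates 1, 2 and 3 overlap. Counting error thus leaves its order unsettled. Replicate 2 was the lowest library for Ccr1 and for all 9 CC ligand genes at 1 TPM or more, and, from few counts, for Cx3cr1 and Fpr2. For Ccrl2, Cxcr4 and the scarce Fpr1 it was replicate 3, and for Ccr2 and Ccr7 replicate 1. Replicate 2 was lowest for 32.2% of the genes averaging 1 TPM or above and replicate 3 for 31.4%. The order replicate 1, 3, 2 held for 13.7% of them. Ccl3 stood at 777, 458 and 568 rescaled TPM and Ccl4 at 632, 323 and 525. Anxa1 was level, at 589, 588 and 577 rescaled TPM.

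**Figure D3:**
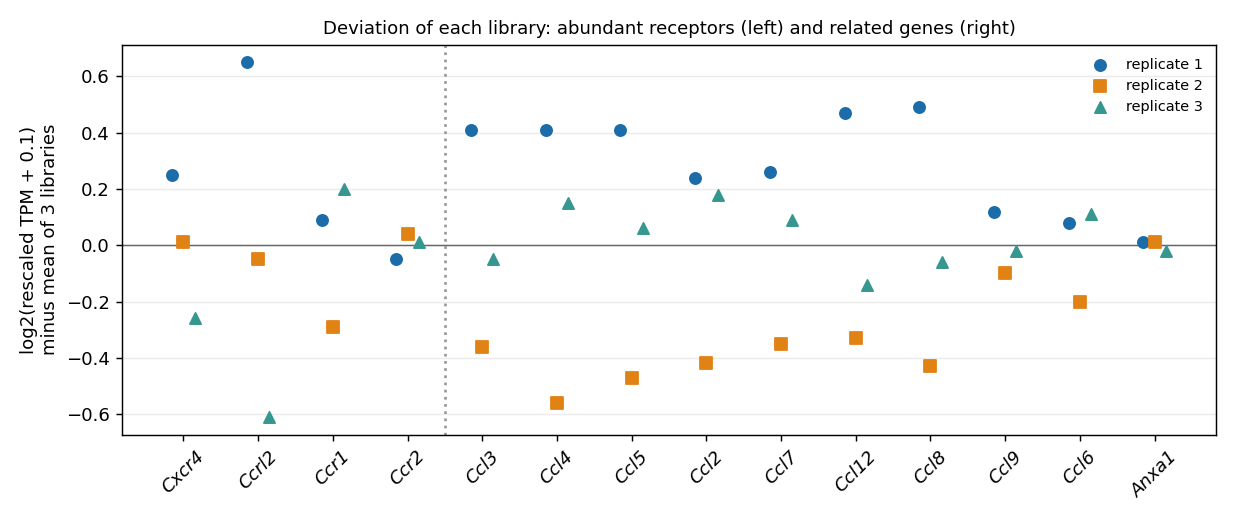
Deviation of each library from the gene's mean of 3, in log2(rescaled TPM + 0.1), for the 4 abundant members (left of the dotted line) and for CC ligand genes and Anxa1 (right). Replicate 3 is lowest for Cxcr4 and Ccrl2, and replicate 2 is lowest for Ccr1 and the CC ligand genes.

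For members with at least 100 counts in every library, the genes of nearest pattern were found among 9159 other protein-coding genes averaging 1 TPM or above. The measure was the largest absolute difference of centred log2(rescaled TPM + 0.1) over the 3 libraries. For Ccrl2, 4 genes (0.0437% of those compared) lay within 0.1, led by Gbp5 at 0.041, Gbp2 at 0.056 and Fam220a at 0.070. Gbp5 and Gbp2 are guanylate-binding protein genes of the interferon response, and Gbp2 stood at 23.6, 12.6 and 7.24 TPM in replicates 1, 2 and 3. By the same measure 128 genes (1.40% of those compared) lay within 0.1 of Ccr1, led by Gpr34, Ercc6 and Map3k12. For Cxcr4 there were 221 (2.41%), led by Bhlhe40, Dcaf1 and Ormdl2. For the even Ccr2 there were 3647 (39.8%), led by Fam160b2, Tgfbrap1 and Bloc1s2. A fixed limit of 0.1 takes in fewer genes when the member itself varies more. The SD of log2(rescaled TPM + 0.1) was 0.63 for Ccrl2, 0.26 for Ccr1 and Cxcr4 and 0.05 for Ccr2. The count was lowest for the member of highest SD and highest for that of lowest SD. Ccr1 and Cxcr4, at the same SD, had 128 and 221 genes. What else sets the counts was not tested. With 3 libraries such likeness is a description only, and a shared cause was not tested.

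Ccr1 and Ccr2 lie in a receptor gene cluster on chromosome 9, and several of its genes were low. The mean TPM was 9.46 for Ccr1 and 3.26 for Ccr2, beside 0.0600 for Cxcr6, 0.0167 for Xcr1, 0.153 for Ccr1l1 and 1.00 for Ccr3. Xcr1 marks cross-presenting dendritic cells and Cxcr6 marks subsets of T cells.

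The 14 other chemokine receptor genes listed had a median of 0.0400 TPM, beside 1.87 TPM for the 8 members, a difference that the choice of members bears on. Among them Cxcr3, a receptor best known from T cells, stood at 1.76 ± 0.353 TPM (SD, n = 3), and Ccr4 and Ccr8 had 0 counts throughout. Of the 16 atypical and related receptor genes listed, 5 reached 1 TPM in every library, and 3 of them exceeded every member in all libraries. C3ar1, the receptor for complement C3a, stood at 175 ± 21.8, Ptafr, for platelet-activating factor, at 77.1 ± 14.5 and C5ar1, for complement C5a, at 67.8 ± 9.66 TPM (SD, n = 3).

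**Figure D4:**
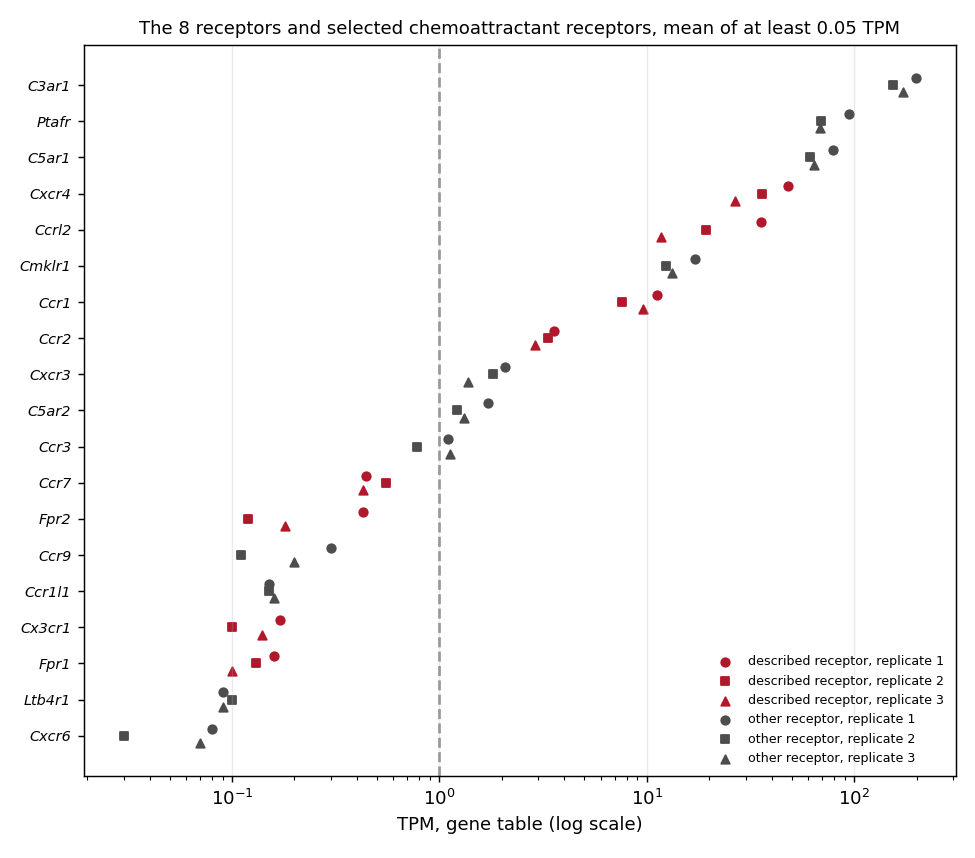
TPM (log axis) of the members (red) and of selected other chemoattractant receptor genes (grey) with a mean of at least 0.05 TPM, 3 libraries each, ordered by mean; the dashed line is 1 TPM. C3ar1, Ptafr and C5ar1 lie above every member in all 3 libraries.

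Most of the genes listed for the signalling chain behind the receptors were expressed. Of 22 G protein and effector genes 21 reached 1 TPM in all libraries, beside 40.7% of the nuclear protein-coding genes. Their median was 31.3 TPM. The list was chosen with earlier results of these data known. Cdc42, a switch of cell polarity, stood at 175 ± 27.0, Gnai2, a Gi subunit that chemokine receptors use, at 141 ± 19.3 and Gng5, a gamma subunit, at 110 ± 21.7 TPM (SD, n = 3). Gnai1, the exception, had 0 counts. Of 14 matched genes for desensitisation 11 did so (median 15.4 TPM), led by the G protein inactivators Rgs1 at 84.3 ± 16.5 and Rgs10 at 74.6 ± 16.6 TPM and by the arrestin gene Arrb2 at 44.6 ± 4.24 TPM (SD, n = 3). The median SD of log2(rescaled TPM + 0.1) was 0.26 for the members, 0.07 for the G protein and effector genes and 0.16 for the desensitisation genes, beside 0.11 for all genes averaging 1 TPM or above. These medians are not matched for level, since 4 members were below 1 TPM in all libraries, where counting error is wider. Among the members the SD ran from 0.05 for Ccr2 to 0.75 for Fpr2.

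Several members mark other leukocytes, so the markers of those cells were measured beside them. In bulk RNA, fewer cells of a type and less RNA per cell cannot be told apart. Of the 11 neutrophil markers, cells in which Fpr1 and Fpr2 are abundant, 4 reached 1 TPM in all libraries (S100a9, S100a8, Mmp8 and Ngp), the sum ranged from 23.6 to 31.7 TPM, and the defining Ly6g had 0, 0 and 1 counts. Of the 9 dendritic cell markers, beside which Ccr7 is read, 1 did so (Batf3 at 1.39 ± 0.297 TPM, SD, n = 3), the sum ranged from 1.70 to 2.35 TPM, and Zbtb46 and Flt3 averaged 0.0767 and 0.107 TPM. Of the 6 monocyte markers, beside which Ccr2 and Cx3cr1 are read, 4 did so and the sum was 47.0, 25.1 and 37.9 TPM in replicates 1, 2 and 3. Most of it was Nr4a1, also an immediate-early gene, at 34.6, 13.6 and 30.8 TPM. Ly6c2 stood at 2.12, 2.94 and 1.44 TPM and Plac8 at 3.75, 5.21 and 1.93 TPM, both highest in replicate 2, where the sum was lowest. None of the 6 B cell, 4 mast cell and basophil, 3 progenitor and 5 fibroblast and endothelial markers reached 1 TPM in all libraries, and 2 of the 11 T and NK cell markers did. On the rescaled scale 5 neutrophil, 6 monocyte, 1 B cell (Cd79b) and 1 mast cell and basophil marker (Kit) reached 1 in all libraries. The counts for the other cell types named here were the same on both scales. Of the nuclear protein-coding genes, 47.6% reached 1 on the rescaled scale. The part of such cells in the members' levels was not tested.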

How the data were processed

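Per the labels, ribosome-depleted total RNA of the cytosolic fraction was sequenced. Accompanying notes give mm10 and GENCODE M21 for all tables. They derive gene values and the first transcript table from transcriptome alignments, and the second transcript table from reads directly, with tools not given in the sources used here. In both kinds of table the deposited expected counts are estimated reads per gene or transcript, the deposited TPM and FPKM are scaled by transcript length and depth, and the deposited isoform percentages were not used. Rows naming no gene with a symbol held 0.420%, 0.123% and 0.142% of counts and were left out.

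Members were joined by symbol and gene identifier, and 31-base words were compared over the reference transcripts. Members and lists were chosen with earlier results of these data known; of the list genes, those named are the highest 3, ligands or partners, and others picked as exceptions after their values were seen. Expected counts were rounded for TMM (edgeR 4.0.16) and DESeq2 1.42.0 size factors. Only the TMM step was tested on simulated data, in libraries of equal composition apart from a set of raised genes. The differences in composition of the real libraries were not simulated. The 3 libraries differed beyond counting noise (chi-square per degree of freedom of at least 52.9). Deposited TPM steps are 0.01. Alternatives were other scales, tables, limits and pseudocounts and leaving out each library; the second table after rescaling was added for the spread after seeing the data. No strand setting was found in the labels. Some genes are not reported here, though list counts and medians include them.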

Additional observations from a re-analysis of the deposited data

How the results depend on the processing

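The count of members at 1 TPM or more in all libraries stayed at 4 with limits of 0.5 and 2 TPM, in the second transcript table, with posterior mean TPM and without any 1 library, and was 5 on both rescaled scales. Of the 7 neighbouring differences, that of Ccr2 over Ccr7 (2.55) was 2.76 and 1.53 with pseudocounts of 0.01 and 1 and 2.29 in the second table. The difference of Cx3cr1 over Fpr1 ranged from -0.07 without replicate 3 to 0.16 without replicate 2. That of Ccr7 over Fpr2 (0.84) was 0.47 without replicate 2 and 0.25 with a pseudocount of 1. The other 4 differences moved by less than their SD under the alternatives run. The SD of log2(rescaled TPM + 0.1) of Fpr2 was 0.31 in the rescaled second table, against 0.75, and that of Ccrl2 ranged from 0.40 to 0.89 without 1 library. Leaving out replicate 2 took the SD of Ccr1 from 0.26 to 0.08 and that of Cx3cr1 from 0.30 to 0.04. The cause of these shifts was not tested. Depth limits Fpr1, Fpr2, Cx3cr1 and Ccr7. No paired analysis was possible because there is 1 condition.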

Other observations

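Some genes used as markers of lymphocytes were well expressed, although the defining T cell genes were not. Il7r, the interleukin-7 receptor chain, stood at 30.7, 25.7 and 33.3 TPM in replicates 1, 2 and 3, and Cd4 at 22.8, 19.0 and 18.3 TPM. The T cell receptor complex genes Cd3d and Cd3e had at most 1 expected count in any library, Cd3g had 0 in all of them and Trac at most 2. The means of Il7r and Cd4, 29.9 and 20.1 TPM, lay on either side of the 22.1 TPM of Ccrl2. By library they differed more, since Il7r was highest in replicate 3, where Ccrl2 was lowest at 11.7 TPM. The lymphocyte genes named here were picked after their values were seen.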
